A study of Mus musculus with 2 samples.

Results

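Acute-phase proteins are proteins whose amount in blood plasma changes during inflammation, and the liver is their classical source. Interleukin-1, interleukin-6 and related cytokines switch their genes on, through transcription factors of the C/EBP, STAT3 and NF-kB families. Several of the genes are also used outside the liver, Saa3 in fat, macrophages and stromal cells, Hp and Lrg1 in fat and neutrophils.

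The genes described here are 7 acute-phase genes, Saa1, Saa3, Ptx3, Hp, Lrg1, Lbp and Orm1, taken by symbol from the 32285 genes in the feature list, and all 7 were found. Their levels were followed in fibroblasts, macrophages and monocytes, neutrophils and endothelial cells of the inflamed temporomandibular joint (TMJ), the hinge of the jaw. The study made 1 scRNA-seq library of WT and 1 of Prox1 mutant joints, the mice being C57BL/6, female per the study's text, 8 to 10 weeks old per the labels. Both groups had received complete Freund's adjuvant (CFA), an oil with killed mycobacteria that inflames a joint, and no untreated library was analysed here. The mutant mice were heterozygous (Prox1+/-) per the study's methods, and Prox1 encodes the transcription factor that sets lymphatic endothelial identity. How many mice went into a library was not given in the sources used here. With 1 library per genotype, a difference between the libraries cannot be told apart from a difference between 2 mice or 2 preparations, so no test was run, and every interval below covers counting error only.

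The libraries held 5709 barcodes in WT and 7846 in the mutant, of which 4352 and 5757 passed the filter of at least 500 genes and under 10% mitochondrial UMIs. A UMI is a tag that counts 1 captured mRNA molecule, and a level is given as CPM, the UMIs of a gene per 1000000 UMIs of its cell class in 1 library. The classes held 532 WT and 339 mutant fibroblasts, 565 and 656 macrophages and monocytes, 313 and 337 neutrophils, and 1005 and 520 endothelial cells. Clusters were formed without the 7 genes. The defining markers of the neutrophils, macrophages and endothelial cells were all highest in their own class among the named classes, and 4 of 7 fibroblast markers in WT and 5 of 7 in the mutant were highest in fibroblasts. Clusters that took no name held 11.8% of the WT and 38.3% of the mutant cells, and 4 barcodes were shared by the kept cells of both libraries. Prox1, itself a lymphatic marker, had a level of 1440 CPM in the 13 WT endothelial cells carrying at least 3 such markers. The 5 mutant cells of this kind had 445 CPM. In WT 1 cell held 152 of the 259 Prox1 UMIs, and among the mutant cells 1 held 23 of 48. All other endothelial cells went the opposite way, with 5.39 CPM (WT) and 15.7 CPM (mutant). Of the 71 mutant UMIs there, 34 lay in 1 cell. These levels are not read as a check of genotype.

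Free RNA in the droplets sets a floor for these genes, and B cells, which should lack them, gave its size. B cells had 36.0 CPM of Saa3 in WT (28 UMIs, of which 13 in 1 cell, 95% Poisson interval 23.9 to 52.1) and 43.9 CPM in the mutant (42 UMIs, 31.6 to 59.3). Hp stood at 6.43 CPM in WT B cells and 30.3 CPM in mutant B cells, while the other 5 genes had 0 to 3 UMIs there. Summed over 8 neutrophil markers, the B cells carried 185 CPM in WT against 1204 CPM in the mutant, and what part such RNA plays in the ratios below was not tested. Median depth in WT and mutant cells was 4013 and 5030 UMIs in B cells, 12246 and 14939 in fibroblasts, 16489 and 15315 in macrophages and monocytes, 4690 and 8704 in neutrophils, and 4613 and 5978 in endothelial cells.

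Saa3 and Saa1 encode serum amyloid A proteins, apolipoproteins that carry retinol and lipid and draw in phagocytes. In GRCm38 they lie close together on chromosome 7 on the minus strand, Saa3 at 46711998 to 46715700 and Saa1 at 46740497 to 46742980. Saa1 was nearly undetected, with 33 UMIs in WT and 23 in mutant fibroblasts, 1 UMI in each library's macrophages and 0 in neutrophils and endothelial cells. Of the 33 WT UMIs, 16 came from 1 cell. Saa1 and its neighbour Saa2 share 12.6% of the 90-base windows of the Saa1 transcripts exactly, and reads from those stretches cannot be assigned to either gene. Saa3 was far more plentiful, and macrophages and monocytes held 59.5% of its UMIs in WT and 63.9% in the mutant.

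The sequence before the start of a gene is where such factors bind, so the stretches for Saa3, whose UMIs lay in few cells, and Lrg1, whose endothelial level differed by 2-fold between libraries, are shown from RefSeq (GRCm38.p6), ending at the first annotated exon. Capitals mark a match to the C/EBP letters TTNNGCAA, searched on both strands along with an NF-kB pattern, TTCNNNGAA for STAT and TATAAA.
Saa3, chr7:46715701-46715926, minus strand: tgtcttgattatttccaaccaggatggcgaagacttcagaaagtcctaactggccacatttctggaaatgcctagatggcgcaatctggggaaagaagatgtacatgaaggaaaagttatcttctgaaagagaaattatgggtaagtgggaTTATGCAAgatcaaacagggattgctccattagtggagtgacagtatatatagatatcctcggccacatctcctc
Lrg1, chr17:56122002-56122196, minus strand: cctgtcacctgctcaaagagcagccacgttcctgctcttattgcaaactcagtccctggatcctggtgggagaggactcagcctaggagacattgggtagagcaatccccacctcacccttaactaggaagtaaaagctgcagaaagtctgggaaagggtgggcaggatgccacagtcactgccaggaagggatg
The Saa3 stretch held 1 match, to the C/EBP letters, whose first base lies 99 bases before the RefSeq start, and 8.95% of 32851 mouse promoter windows of that length hold one. The Lrg1 stretch held no match to any of the 4 patterns, which says only that these letters are not in this window. RefSeq sequences for 4 of the 7 genes were in the table used, those of Saa1, Saa3, Ptx3 and Lrg1.

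Among the cells named fibroblasts, Saa3 lay mostly in the synovial lining subset. The lining is the sheet of cells that faces the joint cavity and makes lubricin. The lining subset, named from 5 of 5 raised markers including Prg4 and Clic5, had 114 WT and 63 mutant cells. Its Saa3 level was 1057 CPM in WT (1019 to 1095) against 1865 CPM in the mutant (1805 to 1927). Of the 3038 WT and 3769 mutant Saa3 UMIs of fibroblasts, all but 92 and 148 were in the lining. These counts leave out an unnamed cluster, described below, in which 3 WT cells held 1692 Saa3 UMIs. Those cells had a median of 1212 fibroblast marker and 1 macrophage marker UMIs. Hp also lay mostly in the lining subset, with 1368 CPM in WT and 1169 CPM in mutant lining cells and 126 and 64 UMIs in all other fibroblasts.

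Within the lining the genes were spread very unevenly. In WT, 2 of 114 cells held 52.2% of the 2946 Saa3 UMIs, the highest with 1258 UMIs and the next with 279, while 69 cells had none. In the mutant, 3 of 63 cells held 52.3% of 3621 UMIs, the highest with 783, 636 and 476, while 27 cells had none. All the fibroblasts with at least 100 Saa3 UMIs, 7 in WT and 9 in the mutant, were in the lining subset. They held 74.7% and 87.7% of the Saa3 UMIs of all fibroblasts, and without them the fibroblast level was 100.98 CPM in WT against 85.3 CPM in the mutant. Their median depth was 30909 UMIs (WT) and 31497 UMIs (mutant), against 12117 and 14755 in the other fibroblasts. Their median macrophage marker count was 0 in both libraries, and none of them was among the droplets with the highest doublet scores. Prg4, the lubricin gene, was uneven among them, with 0 to 75 UMIs in the 7 WT cells and 0 to 1182 in the 9 mutant cells. Other lining cells had up to 1504 Prg4 UMIs in WT and 1532 in the mutant. The WT cell richest in Saa3 had 0 Prg4 UMIs and 213 of Cxcl5.

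**Figure D1:**
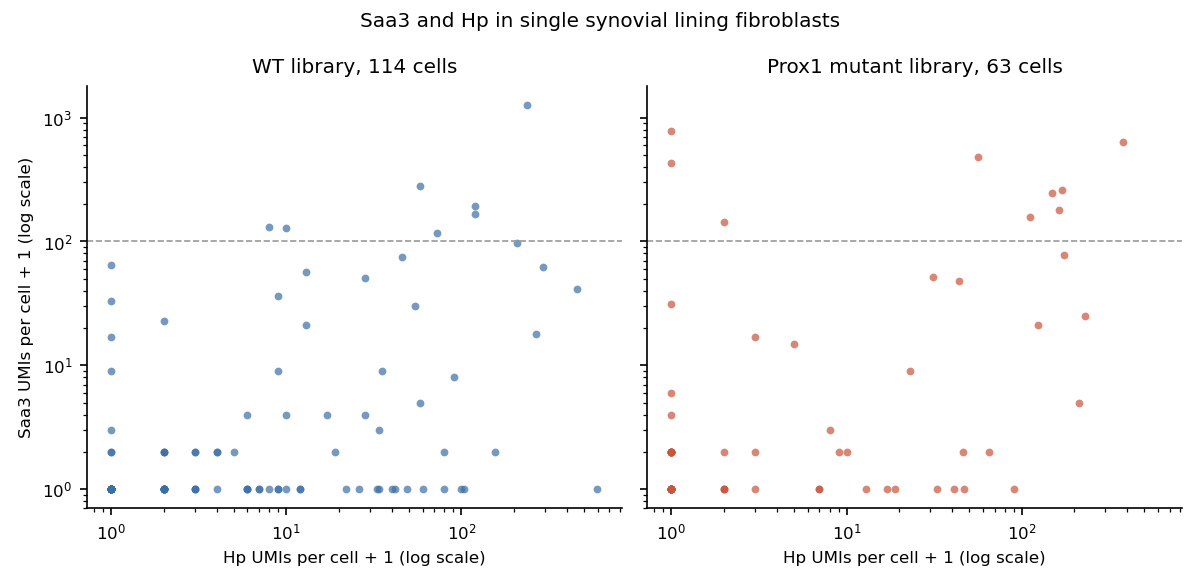
Saa3 UMIs per cell plus 1 (vertical, log scale) against Hp UMIs per cell plus 1 (horizontal, log scale) in the 114 WT and 63 mutant synovial lining fibroblasts, 1 point per cell, with the dashed line at 100 Saa3 UMIs. In WT 7 and in the mutant 9 cells lie above the line, 69 WT and 27 mutant cells lie at 0 Saa3 UMIs, and some cells are high for 1 gene only, such as the mutant cell with 783 Saa3 UMIs and 0 of Hp.

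Hp was found more often in lining cells that also had Saa3. After each cell was thinned to 2000 UMIs, 72.0% of the WT lining cells with a Saa3 UMI also had one of Hp (18 of 25), against 28.7% of those without. In the mutant the shares were 61.1% (11 of 18) and 28.9%. These shares describe the cells of 1 library each. The 7 WT cells with at least 100 Saa3 UMIs had a median of 72 Hp UMIs, against 2 in the other lining cells, and the 9 mutant cells had 110 against 1. The pairing was not strict, since 2 of the 4 mutant cells richest in Saa3 had 0 Hp UMIs. Lbp differed less by share, with a UMI in 68.0% of Saa3-positive and 63.2% of Saa3-negative WT lining cells and in 38.9% and 31.1% of mutant ones. By Hp, 65.1% of positive and 63.8% of negative WT lining cells had Lbp, and 41.7% and 28.2% of mutant ones. In level, the cells with at least 100 Saa3 UMIs had 1245 CPM of Lbp against 716 CPM in the other lining cells of WT, and 580 against 353 CPM in the mutant. These sums lean on single cells, as 1 of the WT cells held 173 Lbp UMIs and the next 27. In the mutant the highest held 78 and the next 29. The Saa3-rich cells had a median of 12 Lbp UMIs in WT and 15 in the mutant, against 11 and 4 over all lining cells. No higher Lbp level is read for them in WT.

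Macrophages and monocytes carried Saa3 in more of their cells. Their level was 917 CPM in WT (900 to 934) against 1433 CPM in the mutant (1412 to 1453), and 38.0% and 41.6% of the cells thinned to 2000 UMIs had a UMI, against 2.52% and 15.6% of B cells. The median cell had 2 Saa3 UMIs in both libraries, and the highest had 451 in WT and 1489 in the mutant. The spread was uneven here too, as 32 WT and 45 mutant cells with at least 100 Saa3 UMIs held 51.3% and 65.0% of them. The subset named monocytes, with Ccr2 and Ly6c2 among its leading genes, had 5 raised monocyte markers. It also had 4 raised markers of Cxcl9-positive interferon-responding macrophages. Its macrophage markers summed to 5786 CPM (WT) and 4638 CPM (mutant). These sums lay between those of the Cxcl3-led (2156 and 1876 CPM) and Folr2-positive cells (14762 and 13791 CPM) described next. Its Saa3 level, 1238 and 1835 CPM, is therefore not credited to recruits from blood alone. A subset led by Cxcl3, a neutrophil attractant, stood at 889 and 1832 CPM, and a subset led by Gpnmb, a gene of lipid-laden macrophages, at 1237 and 904 CPM. The Folr2-positive resident-type (M2-like) macrophages were lowest, with 219 and 146 CPM, of which 118 of the 210 WT UMIs came from 1 cell. Resident-type cells were thus 0.225-fold of the other macrophages in WT (0.195 to 0.257) and 0.0888-fold in the mutant (0.0784 to 0.1002).

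Saa3 in neutrophils was 88.7 CPM in WT against 138 CPM in the mutant, above the B cell level by CPM. It was below the 312 CPM of WT T cells and near the 141 CPM of mutant barcodes with fewer than 200 genes. By share it was not separate from free RNA in the mutant library, where 9.73% of thinned neutrophils and 15.6% of thinned B cells had a UMI. Endothelial Saa3, at 15.7 and 34.5 CPM, lay below the B cell level in both libraries, with overlapping intervals in the mutant, and no endothelial cell had more than 3 UMIs. After thinning, 4.99% of WT and 9.23% of mutant endothelial cells had a UMI, and the level is read as background.

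**Figure D2:**
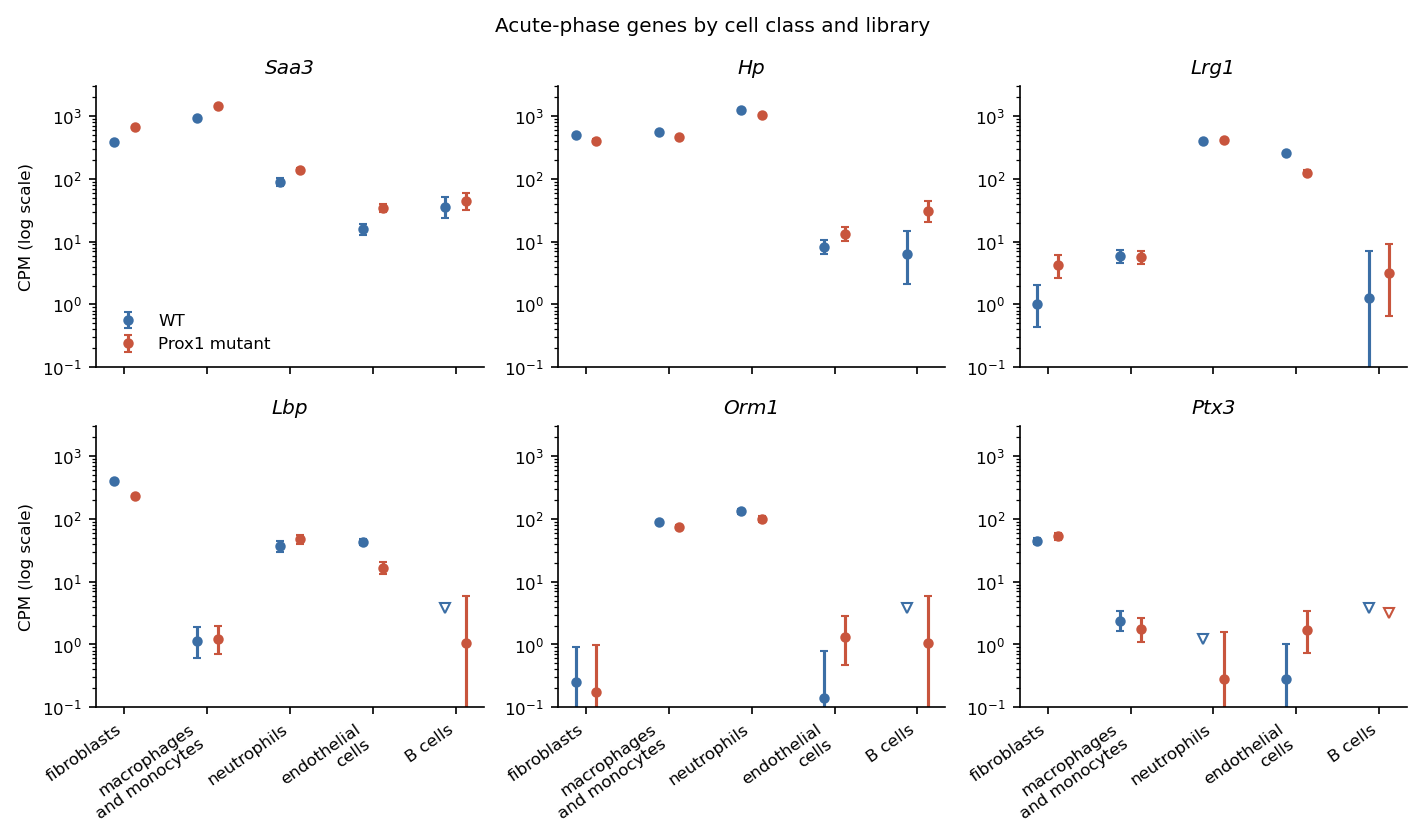
Levels of 6 acute-phase genes in 4 cell classes and in B cells (CPM, log scale), WT in blue and Prox1 mutant in red, with bars for 95% Poisson intervals and open triangles at the limit that 0 UMIs allows (3 UMIs). Saa3 is highest in macrophages and monocytes, Hp and Orm1 in neutrophils, Lrg1 in neutrophils and endothelial cells, and Lbp and Ptx3 in fibroblasts.

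Hp (chromosome 8, 109575128 to 109579172, minus strand) encodes haptoglobin, the protein that captures free haemoglobin and is stored in neutrophil granules. Neutrophils had the highest level of the 4 classes, 1260 CPM in WT (1217 to 1305) against 1019 CPM in the mutant (986 to 1052). Macrophages and monocytes had 548 and 470 CPM and fibroblasts 505 and 406 CPM. Endothelial cells had 8.23 and 13.4 CPM, near the level of B cells. Unlike Saa3, Hp was spread widely in neutrophils, with a median of 5 UMIs per cell in WT and 8 in the mutant and no cell above 69. After thinning, 75.9% and 77.9% of neutrophils had a UMI.

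Hp differed between neutrophil subsets, and the 2 lowest were the same in both libraries. Immature granule-rich neutrophils had 1517 CPM in WT against 1111 CPM in the mutant, and mature Ccl6-led cells had 1233 and 1010 CPM. Mature cells led by Cxcl10, an interferon-induced chemokine, had 503 CPM (428 to 587) and 408 CPM (337 to 489), or 0.367-fold and 0.381-fold of the other neutrophils. Lowest were Eya3-led cells, at 171 and 154 CPM from 9 and 15 UMIs. These 2 subsets also had the least neutrophil marker RNA. Neutrophil markers summed to 3776 and 7454 CPM in Eya3-led cells and 14420 and 19227 CPM in Cxcl10-led cells. The next lowest, the Ccl6-led cells, had 71014 and 77452 CPM. Eya3-led cells had a median depth of 1237 UMIs and macrophage markers of 740 and 1211 CPM. The part of these in the Hp levels was not tested. In macrophages, Hp was highest in the Cxcl3-led subset at 664 and 793 CPM and lowest in the Folr2-positive cells at 52.1 and 25.6 CPM.

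Orm1 (chromosome 4, 63344560 to 63348163, plus strand) encodes orosomucoid 1, a plasma carrier of drugs and lipids. Among the 4 classes it was a gene of neutrophils, with 131 CPM in WT against 100.6 CPM in the mutant, and of macrophages and monocytes, with 88.2 and 74.2 CPM. Fibroblasts had 2 and 1 UMIs and endothelial cells 1 and 6. In neutrophils it was highest in the immature granule-rich subset, at 254 CPM in WT (221 to 290) against 194 CPM in the mutant (166 to 224), followed by the Tmem45a2-led cells at 166 and 142 CPM. The Mmp8-led cells had 7 UMIs in each library. The mature Cxcl10-led cells had 1 Orm1 UMI in each library. In macrophages the Cxcl3-led subset led with 118 and 135 CPM, and the Folr2-positive cells had 2 and 6 UMIs. Orm1 and its neighbour Orm2 share 9.77% of the 90-base windows of Orm1, so some reads could fall to either gene.

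**Figure D3:**
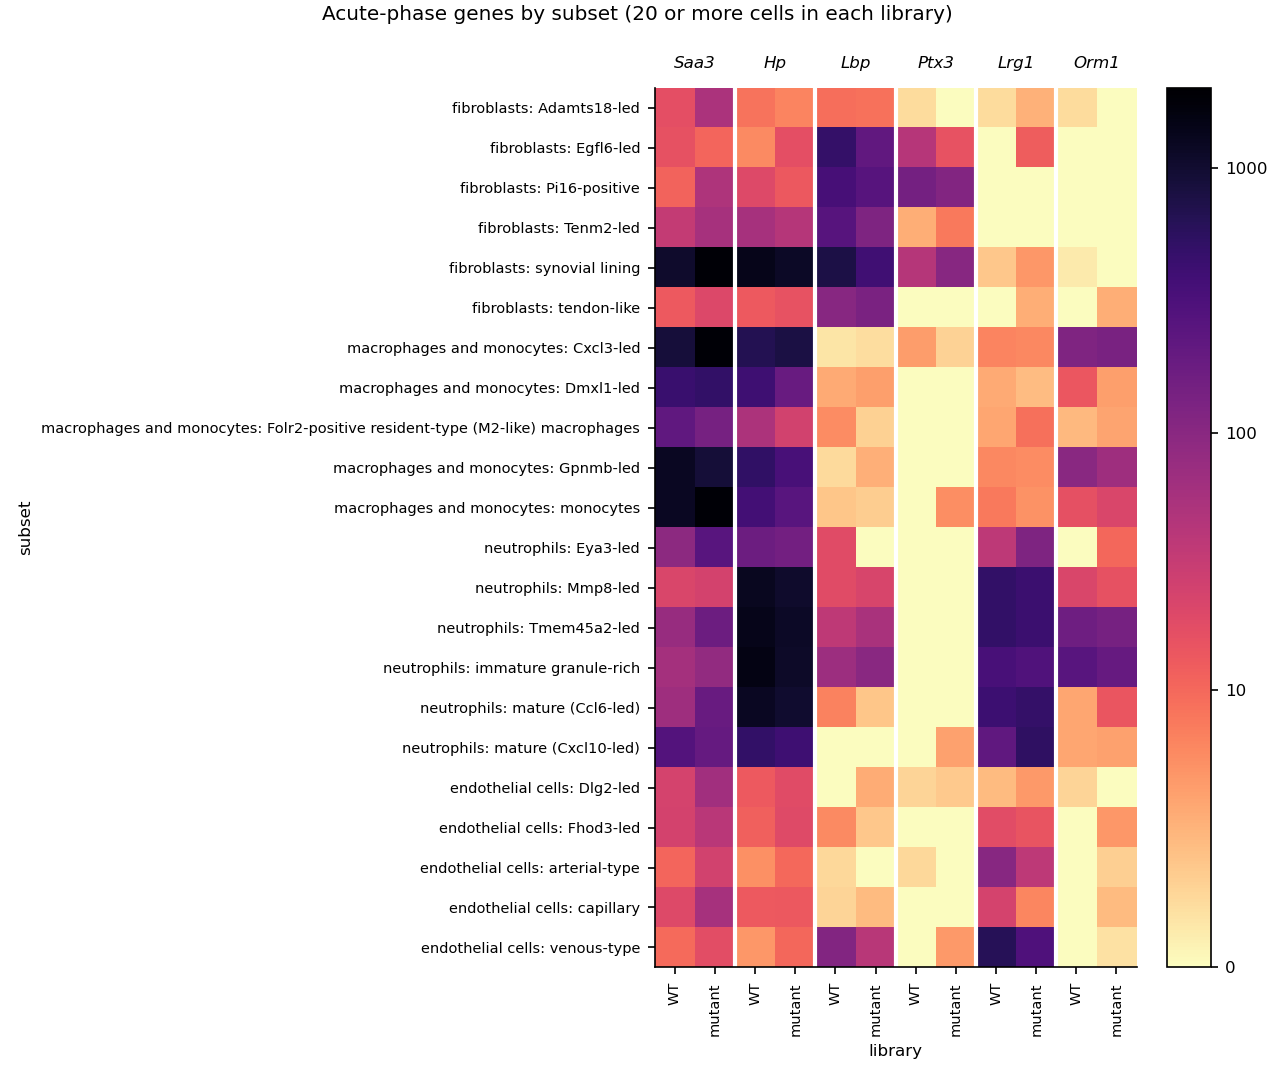
Levels of 6 acute-phase genes (CPM, colour on the log10(CPM + 1) scale) in the subsets with at least 20 cells in each library, with 1 column for WT and 1 for the Prox1 mutant per gene. Dark cells show Saa3 and Hp in the synovial lining and in macrophage subsets, Hp and Lrg1 in neutrophils, Lbp in the fibroblast subsets other than the Adamts18-led one, and Lrg1 in venous-type endothelium.

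Lbp (chromosome 2, 158306493 to 158332852, plus strand) encodes the protein that hands bacterial lipopolysaccharide to CD14. It was used by most fibroblast subsets, with 400 CPM in WT (386 to 414) against 229 CPM in the mutant (217 to 242) over the class. After thinning, 32.4% and 21.9% of fibroblasts had a UMI. Lining cells were highest, at 755 and 390 CPM. Outside the lining the Egfl6-led fibroblasts had 489 and 215 CPM, and the Pi16-positive fibroblasts, a subset found around vessels, had 352 and 261 CPM. The tendon-like subset had 102 and 133 CPM, and the Adamts18-led fibroblasts had 8.996 and 8.42 CPM. Macrophages and monocytes had 14 and 16 Lbp UMIs in all. Neutrophils had 36.5 and 47.0 CPM, most of it in the immature granule-rich subset at 69.7 and 101.1 CPM.

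Ptx3 (chromosome 3, 66219910 to 66225805, plus strand) encodes the long pentraxin 3, a soluble receptor that marks microbes for uptake. Fibroblasts held 82.0% of its UMIs in WT and 73.4% in the mutant, at 44.3 CPM (39.8 to 49.2) and 52.4 CPM (46.7 to 58.7). In the Pi16-positive subset it reached 147 CPM in WT against 113 CPM in the mutant, 4.52-fold and 2.49-fold above the other fibroblasts. There too few cells carried it, as 7 of the 61 WT cells held 81.5% of the 119 UMIs and 40 had none. After thinning, 7 of 61 WT and 4 of 32 mutant Pi16-positive cells had a UMI. The Inmt-led fibroblasts had 97.7 and 54.4 CPM. Lining cells had 44.8 and 103 CPM, but 91 of the 199 mutant UMIs there came from 1 cell. Endothelial cells had 2 UMIs in WT and 8 in the mutant, and 7 of the 8 came from 1 of the 5 mutant cells with lymphatic markers. The 13 WT cells with lymphatic markers had 0, which allows up to 16.7 CPM, so neither presence nor absence of a difference can be read from 1 cell.

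Lrg1 (chromosome 17, 56119678 to 56122001, minus strand) encodes leucine-rich alpha-2-glycoprotein 1, which binds endoglin and shifts TGF-beta signalling in endothelium. It was shared by neutrophils, at 394 CPM in WT (370 to 420) against 407 CPM in the mutant (386 to 429), and endothelial cells, at 254 CPM (242 to 266) and 125 CPM (115 to 136). Fibroblasts had 8 and 24 UMIs and macrophages 74 and 74. In endothelium Lrg1 was a gene of the venous-type subset, the Selp and Ackr1 positive vessels through which leukocytes leave the blood. Venous-type cells had 613 CPM in WT (584 to 644, 1617 UMIs in 164 cells) against 301 CPM in the mutant (276 to 328, 529 UMIs in 99 cells), 15.7-fold and 17.0-fold above the other endothelial cells. Arterial-type cells had 102 and 37.6 CPM. Endothelial Lbp lay in the same subset, with 112 CPM in WT and 41.6 CPM in mutant venous-type cells and 8 and 4 UMIs in all other endothelial cells. Without the cells carrying lymphatic markers, described next, the venous-type level was 75.3 and 33.4 CPM. Within WT venous-type cells, 18.4% of the Lrg1-positive and 20.7% of the Lrg1-negative thinned cells had an Lbp UMI, and in the mutant 8.57% and 1.56%, the first being 3 of 35 cells.

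Endothelial cells with at least 3 lymphatic markers, all of which fell in the venous-type subset, had both genes. Lbp was in nearly all of them and Lrg1 in fewer. The 13 WT cells had 778 CPM of Lrg1 (655 to 918), from 7 cells, and 617 CPM of Lbp (508 to 743), with 12 of 13 cells positive for Lbp. The 5 mutant cells had 296 CPM of Lrg1 (203 to 418) and 167 CPM of Lbp (98.8 to 263), with 5 of 5 positive for Lbp. In WT, 1 cell held 102 of the 140 Lrg1 UMIs and 1 held 63 of the 111 Lbp UMIs. In the mutant, 1 cell held 29 of the 32 Lrg1 UMIs. With 13 and 5 cells from 1 library each, these values describe those cells.

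**Figure D4:**
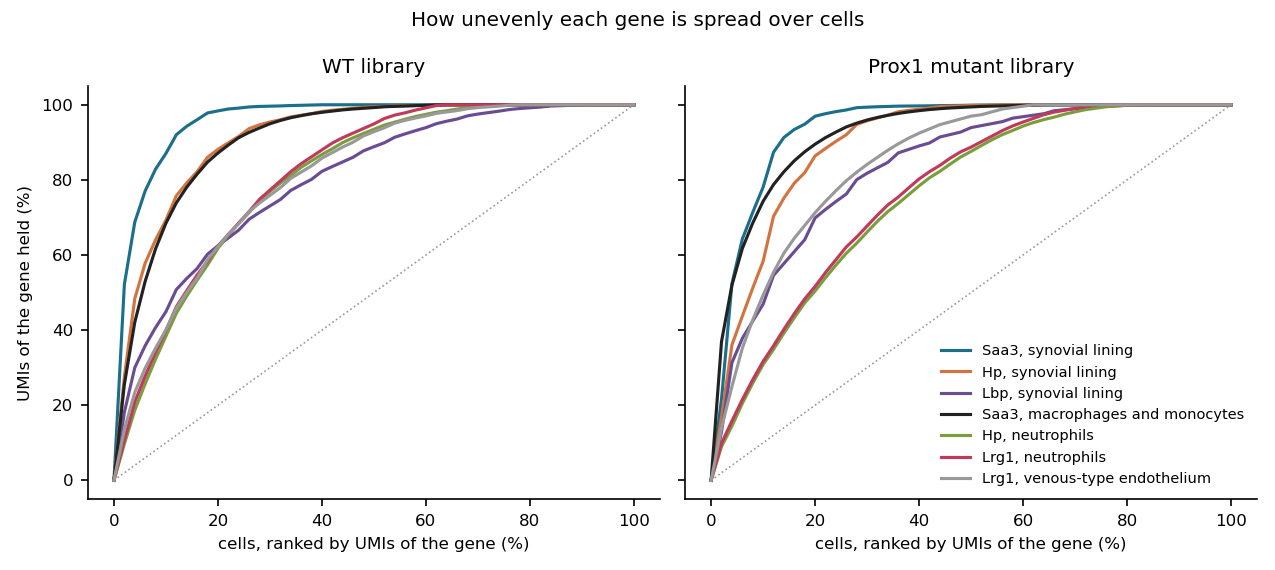
Share of a gene's UMIs (vertical, %) held by the cells richest in it (horizontal, % of cells ranked by UMIs), 1 line per gene and cell group, WT left and Prox1 mutant right, with the dotted line for an even spread. In the lining, 2 WT cells hold 52.2% and 3 mutant cells 52.3% of the Saa3 UMIs, the lining Saa3 line is the steepest in WT, and the line for Hp in neutrophils rises slowly in both libraries.

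The mutant library was then set against WT within each class, over genes with at least 100 UMIs in both libraries together. In fibroblasts none of the 4 acute-phase genes measured was past 2-fold, where 1.15% of 9952 genes were higher and 1.21% lower by 2-fold or more. In macrophages and monocytes none of 4 was past it, with 4.11% of 9748 genes higher and 1.2% lower, and the median of all genes there lay at a log2 ratio of 0.20. In neutrophils none of 5 was past it, with 2.05% of 5471 genes higher and 2.01% lower. In endothelial cells 1 of 4 was higher by 2-fold or more, Saa3, and 2 were lower, Lrg1 and Lbp, where 1.23% of 9094 genes were higher and 1.22% lower. The median of all genes was 0.04, 0.03 and 0.04 in fibroblasts, neutrophils and endothelial cells.

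Lrg1 and Lbp were lower in mutant endothelium in all 12 other settings. The log2 ratio of Lrg1 was -1.02 in endothelial cells (interval -1.16 to -0.88) and -1.03 within the venous-type subset, and over 12 other settings it lay between -1.05 and -0.70, past 2-fold in 8 of them. For Lbp it was -1.37 (-1.76 to -1.01) in endothelial cells and -1.43 within the venous-type subset, with -1.57 to -1.14 over the other settings. Without the cells carrying lymphatic markers the ratios in endothelial cells were -0.99 for Lrg1 and -1.11 for Lbp. Summed neutrophil markers were 155 CPM in WT and 300 CPM in mutant endothelial cells, and 5 erythroid markers summed to 657 and 2982 CPM. Fibroblast markers, 7 in number, summed to 286 and 109 CPM in endothelial cells and to 379 and 95.1 CPM in the venous-type subset. Their part in these ratios was not tested. Lower values were not limited to endothelium. Granulocyte-monocyte progenitors had log2 ratios of -1.61 for Lrg1 and -1.09 for Lbp. Unnamed cells had 0.11 for Lrg1 and -1.09 for Lbp, and adipocytes -0.31 for Lrg1. Lrg1 in neutrophils had a log2 ratio of 0.05 (-0.07 to 0.17), and was higher in the mutant in the mature Cxcl10-led cells, at 219 CPM in WT against 531 CPM in the mutant (1.28, 0.86 to 1.71). In the mutant, 29 of these 56 cells had no Lrg1 UMI, and 6 held 47.7% of the 151 UMIs. In the Cxcl10-led cells macrophage markers summed to 806 and 320 CPM and neutrophil markers to 14420 and 19227 CPM. Their part in this ratio was not tested. The endothelial ratio of Saa3, 1.13 (0.775 to 1.496), stands on levels read as background, as given above.

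Lbp in fibroblasts was 0.80 lower on the log2 scale in the mutant (-0.90 to -0.71) and lower in all 12 other settings, from -1.12 to -0.73. It was lower in lining cells (-0.95), Egfl6-led cells (-1.19), Tenm2-led cells (-1.06) and Pi16-positive cells (-0.43), while the intervals of the Inmt-led (0.41) and tendon-like (0.38) subsets included 0. In fibroblasts neutrophil markers summed to 112 CPM in WT and 387 CPM in mutant cells, erythroid markers to 728 and 1380 CPM, macrophage markers to 52.4 and 104 CPM and fibroblast markers to 35948 and 28653 CPM. In the lining alone these sums were 79.3 and 103, 1381 and 1128, 84.6 and 92.7, and 39826 and 30539 CPM. The part of these in the fibroblast ratios was not tested.

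Saa3 in macrophages and monocytes was 0.64 higher on the log2 scale in the mutant (0.61 to 0.68), 0.37 to 0.69 in the other settings, and 0.28 without the 32 WT and 45 mutant cells holding at least 100 Saa3 UMIs. By summed level the subsets did not move together. The Cxcl3-led cells had a log2 ratio of 1.04 (0.9999 to 1.087) and monocytes 0.57 (0.50 to 0.64), while the Gpnmb-led cells had -0.45 (-0.56 to -0.35) and the Folr2-positive cells -0.59 (-0.85 to -0.32). Among the mutant monocytes 1 cell held 1489 of 6198 UMIs. The median monocyte had 2 Saa3 UMIs in both libraries, and the upper quartile was 24 in WT and 20 in the mutant. So the monocyte ratio was not seen in the median cell. The median Gpnmb-led cell had 3 UMIs in WT and 2 in the mutant, but fewer mutant cells had none (28.6% against 37.5%). In the Folr2-positive cells of WT 1 cell held 118 of 210 UMIs. There 77.9% of the WT and 62.9% of the mutant cells had none, so no direction is read from that ratio. In the Cxcl3-led cells the difference was also seen in the median cell, which had 5 Saa3 UMIs in WT and 22 in the mutant. Neutrophil markers summed to 725 CPM in WT and 1443 CPM in mutant Cxcl3-led cells, to 285 and 828 CPM in Gpnmb-led cells, and to 321 and 560 CPM in Folr2-positive cells. Erythroid markers summed to 68.5 and 898 CPM, 59.9 and 3822 CPM, and 65.7 and 844 CPM in the same order. In monocytes the sums were 492 and 816 CPM for neutrophil and 740 and 2243 CPM for erythroid markers. The part of these in the differences was not tested.

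The fibroblast ratio of Saa3 depended on which cells were counted. It was 0.75 (0.68 to 0.82) as computed, 1.19 without the cell richest in Saa3 in each library, and between -0.04 and 0.90 in 11 other settings. It was 0.09 with an unnamed cluster led by Mmp10, Cxcl5 and Timp1 counted as fibroblasts (6 WT and 89 mutant cells), in which 3 WT cells held 1692 Saa3 UMIs. Without the cells holding at least 100 Saa3 UMIs it was -0.24.

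**Figure D5:**
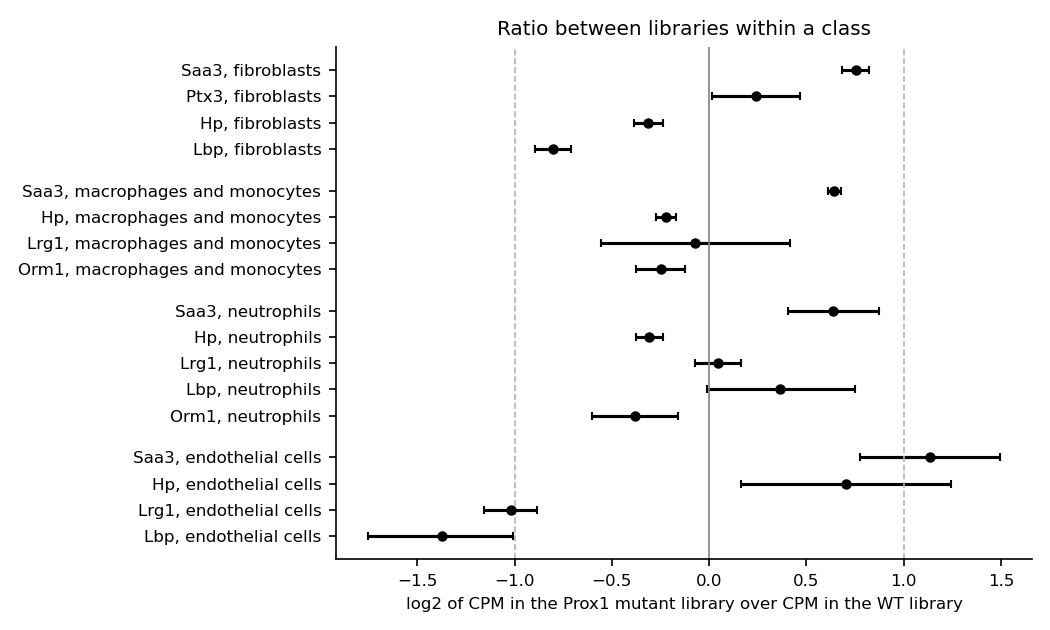
Log2 ratio of CPM in the Prox1 mutant library over CPM in the WT library for each acute-phase gene with at least 100 UMIs in a class, with 95% conditional binomial intervals (counting error only) and dashed lines at 2-fold. Saa3 lies right of 0 in all 4 classes, though not in every setting in fibroblasts and neutrophils, and Lrg1 and Lbp in endothelial cells lie left of the 2-fold line.

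Hp was lower in the mutant in fibroblasts (-0.31), macrophages and monocytes (-0.22) and neutrophils (-0.31), all under 2-fold and lower in each of the 12 other settings. The Cxcl3-led subset, which held 5264 of the 6872 WT and 4635 of the 6185 mutant Hp UMIs of macrophages and monocytes, went the other way, with a log2 ratio of 0.26 (0.20 to 0.31), and it held 229 WT and 168 mutant cells. The 10 WT and 9 mutant fibroblasts with at least 100 Hp UMIs held 64.6% and 73.1% of the Hp UMIs of fibroblasts. Without them the fibroblast level was 185 CPM in WT against 117 CPM in the mutant. Neutrophil Orm1 was lower by 0.38 and turned to 0.19 when cells were thinned to 2000 UMIs. Neutrophil Saa3, 0.64 higher as computed, turned to -0.21 as a mean of CPM per cell and -0.096 after thinning, with median depths of 4690 UMIs in WT and 8704 in mutant neutrophils. Ptx3 in fibroblasts was 0.24 higher (0.01 to 0.47), but -0.41 as a mean of CPM per cell, -0.44 after thinning and -0.077 without the cell richest in it in each library.

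Genes that act around these 7 were read as whole lists, each gene counted where it had at least 100 UMIs in a class. The counts past 2-fold are to be read beside the shares over all genes. These were 1.15% higher and 1.21% lower in fibroblasts, and 4.11% and 1.2% in macrophages and monocytes. In neutrophils they were 2.05% and 2.01%, and in endothelial cells 1.23% and 1.22%. Of 22 other acute-phase genes, 7 were measured in fibroblasts, and 1 was higher by 2-fold or more, Lcn2, the iron-scavenging lipocalin, at 58.3 CPM in WT against 150.2 CPM in the mutant. Neutrophil markers in fibroblasts, given above, were higher in the mutant too, at 1214 CPM in its Egfl6-led cells against 86.0 CPM in those of WT, and their part was not tested. The highest in fibroblasts were complement C3 at 1531 and 1967 CPM, the metallothioneins Mt1 at 1566 and 865 CPM and Mt2 at 656 and 546 CPM, and the copper carrier Cp at 187 and 198 CPM. In macrophages and monocytes 2 of 5 were higher, Lcn2 at 18.4 and 46.4 CPM and Cp at 5.74 and 22.5 CPM, while C3 had 570.5 and 819 CPM, Mt1 552 and 338 CPM and Mt2 83.3 and 69.1 CPM. Neutrophil markers there summed to 601 CPM in WT and 1055 CPM in mutant cells and erythroid markers to 179 and 1640 CPM, and their part was not tested. In neutrophils 1 of 4 was lower, Mt1 at 55.4 and 12.5 CPM, and the highest was Lcn2 at 10067 and 8155 CPM. In endothelial cells 2 of 5 were lower, Mt1 at 79.4 and 27.4 CPM and Mt2 at 48.1 and 19.002 CPM, with Cp at 132 and 70.8 CPM and Lcn2 at 39.0 and 22.9 CPM. The median log2 ratio of the list was 0.08 in fibroblasts, 0.52 in macrophages and monocytes, -0.42 in neutrophils and -0.90 in endothelial cells.

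Of 17 genes for inducing cytokines, their receptors and transcription factors, 13 were measured in fibroblasts and 2 were lower by 2-fold or more. Cebpd, the C/EBP factor induced in the acute phase, had 672 CPM in WT and 263 CPM in mutant fibroblasts, and Il1b had 59.4 and 12.5 CPM. In endothelial cells Cebpd was the 1 of 13 past 2-fold, lower at 234 and 97.6 CPM. Stat3, which carries the interleukin-6 signal, had 470 and 479 CPM in fibroblasts and 683 and 715 CPM in endothelial cells. In macrophages and monocytes 1 of 16 was higher, Lif at 5.82 and 21.05 CPM, and Il1b had 1368 and 1608 CPM and Cebpb 1265 and 869 CPM. In neutrophils none of 12 was past 2-fold, with Il1b at 3308 and 2665 CPM. The list's medians were -0.06 in fibroblasts, 0.25 in macrophages and monocytes, -0.27 in neutrophils and 0.01 in endothelial cells.

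Of 14 receptors and binding partners of the 7 proteins, none of 11 in fibroblasts, 13 in macrophages and monocytes and 8 in endothelial cells was past 2-fold. Neutrophil Tlr4, the lipopolysaccharide receptor, was the 1 of 8 that was lower, at 153 CPM in WT against 69.2 CPM in the mutant. Cd14, which takes lipopolysaccharide from Lbp, had 1714 and 1054 CPM in macrophages and monocytes and 691 and 530 CPM in neutrophils. Fpr2, a receptor for serum amyloid A, had 125 and 219 CPM in macrophages and monocytes and 201 and 312 CPM in neutrophils. Endoglin (Eng), the partner of Lrg1, had 553 and 626 CPM in endothelial cells. Tnfaip6, which binds Ptx3 in matrix, had 1758 and 1735 CPM in fibroblasts. The medians were -0.02, 0.06, 0.10 and -0.12 in fibroblasts, macrophages and monocytes, neutrophils and endothelial cells.

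Over 23 points of class and library (14 classes, at least 50 cells each), the genes whose levels were most like those of the 7 were found by Pearson's r of log2(CPM + 5), as a description over points that share libraries. Saa3 was most like Mmp19 (r = 0.948), Dram1, C3, Ptges and Cfb, and Hp most like C3 (r = 0.889), Abcd2, Pygl, Dram1 and Mgst1. Ptx3 was most like Rspo2 (r = 0.953), Arsi, Masp1 and Lrrn4cl. Lbp was most like Pi16 (r = 0.854), Creb3l1, Tmed3, Cxcl5 and Fkbp11. Orm1 was most like Gpr84 (r = 0.837), Gm6209, Fpr2, Mirt2 and Hcar2, and Lrg1 most like Rflnb (r = 0.744), Arap3, Lcn2, Abhd5 and Dach1. With Spearman's rho in place of r, 4 of the 5 genes stayed for Saa3, 2 each for Hp, Lrg1 and Lbp, and 0 for Ptx3 and Orm1.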

How the data were processed

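The 2 libraries of dissociated TMJ, 1 of WT and 1 of Prox1 mutant mice after CFA, came from droplet 3' scRNA-seq. The authors aligned reads to GRCm38 (mm10) (Cell Ranger 7.0.1). The deposited values are unnormalized UMI counts, 1 per gene and barcode. Whether intronic reads were counted is not given in the sources used here. After filtering, 48366846 WT and 54330221 mutant UMIs were left, with 6997 and 4848 in the median cell.

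The 7 genes, the lists and the rules were chosen with earlier results of these data known. Cells passing the study's cutoffs (500 or more genes, mitochondrial share below 10%) were normalized with SCTransform, integrated by anchors on 3000 features without the 7 genes, and clustered on 200 principal components at resolution 1.5 (Seurat 5.3.0, sctransform 0.4.2, R 4.3.3). The 4 classes were clustered again on 30 components at resolution 0.5. A type needed 3 raised markers to name a cluster, and the type whose markers were most raised on average gave the name, a marker being raised at 2 times the other cells' CPM (each plus 5) and in 10% of cells. Rules added after the clusters were seen applied the Mmp12 macrophage markers at the first level and left some clusters unnamed. These were clusters where another type's markers led, or where at least 70% of the markers of another lineage were raised. A cluster led by none of its own markers also stayed unnamed if it was shallow, or if another lineage had more raised markers. Doublets were kept, since Scrublet (scanpy 1.11.5) called 0 by its own threshold, and removing the highest scores at 0.8% per 1000 cells was an alternative.

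CPM had exact Poisson intervals, shares Clopper-Pearson intervals and ratios exact conditional binomial intervals (95%, scipy 1.17.1). Cells were thinned to 2000 UMIs where depth could set a share. A count of 0 was given the limit of 3 UMIs. On simulated counts the intervals of the fibroblast comparison held the true ratio for 95.7% of 9933 genes. Those counts were drawn with the Poisson error that the intervals assume. They held no spread between cells or libraries, so this share only checks the computation. Named genes were the 7, the 4 highest of each list and those past 2-fold (at most 4 per class), each with at least 100 UMIs, and the 5 most alike for genes with at least 500 UMIs. Of the genes this rule names, 2 are not reported here, and others of the lists are given by count only. Positions are from GENCODE M21. Alternatives changed the cell filter, doublets, features, integration, normalization, resolution, class rule, scaling and depth.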

Additional observations from a re-analysis of the deposited data

How the results depend on the processing

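No paired analysis was possible because each genotype had 1 library, and for the same reason no replicate could be left out. Over 12 other settings the class with the highest level stayed the same for each gene and library, with Saa1 not counted. Of the ratios in a gene's leading class, those of Ptx3 and Orm1 changed sign in some settings, as did Lrg1 in neutrophils, whose interval included 0, and others moved in size only. With a mean of CPM per cell, log2 ratios were -0.41 for Ptx3 in fibroblasts, 0.43 for Saa3 in macrophages and monocytes, -0.20 for Hp, 0.20 for Lrg1 and -0.012 for Orm1 in neutrophils, and -0.74 for Lrg1 in endothelial cells. After thinning to 2000 UMIs they were -0.44, 0.37, -0.094, 0.27, 0.19 and -0.70 in the same order. Without the cell richest in the gene in each library, Ptx3 in fibroblasts was -0.077 and Saa3 in macrophages and monocytes 0.58. Lbp in fibroblasts was -1.05 with the looser cell filter (at least 200 genes, under 20% mitochondrial UMIs), -0.90 without doublets, -0.91 with the 7 genes among the clustering features, -1.12 with libraries merged and -1.07 at resolution 0.5. In settings chosen after seeing the data it was -0.93 with the Mmp10-led cluster added and -0.63 without cells of at least 100 UMIs of the gene. Saa3 in macrophages and monocytes was 0.69 with the looser filter, 0.51 without doublets, 0.58 with libraries merged, 0.57 with log-normalization, 0.56 with classes from marker UMIs per cell and 0.28 without cells of at least 100 UMIs. Hp in neutrophils was -0.49 without doublets, -0.40 with log-normalization, -0.39 with marker classes and -0.40 with the stricter filter (at least 1000 genes, under 5%), and Lrg1 there was -0.31 without doublets, -0.075 with marker classes and -0.091 with the stricter filter. Saa3 in endothelial cells was 1.55 with log-normalization and 2.04 with marker classes. The cause of these shifts was not tested. Among the 4 classes, some genes had too few UMIs for a ratio. These were Saa1, Orm1 outside myeloid cells, Ptx3 outside fibroblasts, Lrg1 in fibroblasts, and Lbp in macrophages and monocytes.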

Other observations

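Adipocytes carried several of these genes, although the named class held 6 WT and 116 mutant cells. Saa3 stood at 6445 CPM in WT against 1648 CPM in mutant adipocytes, Hp at 19396 and 5544 CPM, and Lrg1 at 1137 and 919 CPM. Orm1 stood at 159 and 110 CPM, from 21 and 79 UMIs. With 6 WT cells the WT values describe those cells.

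Clusters that took no name also held Saa3. In the cluster led by Mmp10, Cxcl5 and Timp1, 3 of 6 WT cells held all 1692 Saa3 UMIs of its WT cells, a level of 22245 CPM, and Col1a1 stood at 13844 CPM in those 6 cells. Its 89 mutant cells had 376 CPM of Saa3 and 39150 CPM of Hba-a1, a haemoglobin gene. A cluster led by Arg1 and Nos2, with 10 WT and 252 mutant cells and median depths of 7042.5 and 1321.5 UMIs, had 350 CPM of Saa3 in WT against 1640 CPM in the mutant. Neutrophil markers summed to 563 and 8532 CPM in these cells and erythroid markers to 68.6 and 7568 CPM, and their part in the difference was not tested.

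Barcodes with fewer than 200 genes, which the filter removed, had 32.9 CPM of Saa3 in WT against 141 CPM in the mutant, and 18.6 and 43.1 CPM of Hp.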
